A study of Mus musculus with 9 samples.

Results

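The apoptosis and DNA damage response genes described here are 36 mouse genes. They sense DNA damage, decide on cell death, carry it out or repair oxidised or deaminated DNA bases. They were taken by gene symbol alone, and 35 of the 36 were found, with 1 row each, among the 38685 genes and loci of the table. The BCL2 relative Bcl2l2 was not analysed here. Of the 35 genes, 27 had enough counts to be tested and 8 (Pmaip1, Fas, Casp8, Endog, Ogg1, Mutyh, Nthl1 and Apex1) did not, so the latter are given by their values only.

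Total testis RNA came from male C57BL/6 mice of 3 genotypes, with 3 biological replicates in each, and was sequenced with QuantSeq, which reads messenger RNA next to its poly(A) tail. The Prm2+/+ libraries are labelled WT, the Prm2+/- libraries Prm2-heterozygous and the Prm2-/- libraries Prm2-deficient. Prm2 encodes protamine 2, a small basic protein that packs DNA in maturing spermatids, and the deficient animals descend from CRISPR/Cas9-edited oocytes, so that the edit is present in every cell. The tunica albuginea, the capsule of the testis, had been removed, and the ages of the males used for RNA are not given in the sources used here. The comparisons ask whether transcripts of these pathways differ in testis when 1 or both copies of Prm2 are lost.

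In the intrinsic pathway of apoptosis, BCL2 family proteins control the permeability of the outer mitochondrial membrane, and BH3-only members such as Bad, Bid, Bbc3 and Pmaip1 tip the balance towards death. Proteins released from mitochondria then assemble the apoptosome with Apaf1 and Casp9 or relieve the inhibitor of apoptosis proteins, while the extrinsic pathway runs from the Fas receptor through Fadd to Casp8. The kinases Atm, Atr, Chek1 and Chek2 signal DNA breaks and stalled replication, in part to p53, and base excision repair removes oxidised or deaminated bases. In testis, apoptosis trims the germ cell population during spermatogenesis, and programmed DNA breaks occur in spermatocytes and again when histones are replaced in spermatids.

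The deposited values are normalized counts, that is counts divided by 1 size factor per library. Each library held between 3629929 and 4490411 recovered counts, and a count of 0 still allows up to 3 counts, or 2.65 to 3.31 normalized counts, a limit that covers counting error only. The level of Prm2 itself was 33046 ± 5732 in Prm2+/+, 31891 ± 2287 in Prm2+/- and 37810 ± 4344 in Prm2-/- (SD, n = 3 each), so that it does not check the labels, and genotypes are those of the libraries as labelled. Replicate 3 of Prm2+/+ stood apart, with 4.04% of the 14893 tested genes at 0 against 0.812% to 1.62% in the other 8 libraries. Summed markers of elongating spermatids, a sum made up mostly of Prm1 and Tnp1, ranged from 218430 to 237837 in the 9 libraries and overlapped between genotypes. The sums for spermatogonia, spermatocytes, round spermatids, Sertoli, Leydig, macrophage, endothelial and blood cells also overlapped between genotypes. Single genes weighed on some of these sums. Dmrtb1, at 2267 to 3196, made up most of the spermatogonia sum of 2530 to 3588. In the Sertoli sum, Amhr2 had 692 in replicate 3 of Prm2+/+ and 539 and 544 in replicates 1 and 2 of Prm2-/-. It had 6.43 to 12.8 in the other libraries. Of the 10 elongating spermatid markers, 2 reached p under 0.05 before adjustment in Prm2-/- against Prm2+/+, 1 higher and 1 lower, with 0 called in limma, and Odf2 had 4660 to 4869 normalized counts in Prm2-/- against 2767 to 3862 in the other 6 libraries. At that level 1 of 11 spermatocyte markers was lower and 1 of 4 endothelial markers higher, and the part of these genes in the results was not tested. Summed peritubular markers (6 genes, none at 0 in all libraries) were 352 to 429 in Prm2+/+, 313 to 375 in Prm2+/- and 283 to 337 in Prm2-/-, so that Prm2-/- lay below Prm2+/+ without overlap. In that comparison 3 of the 5 tested peritubular genes were lower at p under 0.05 before adjustment and 0 were called in limma, and their part in the results was not tested. Of 8 epididymis markers, Lcn5, Lcn8 and Spink13 were at 0 in all libraries and Adam7, Crisp1, Defb48 and Ros1 in most, while Cst8 had 1977 to 2403 normalized counts, which makes up nearly all of the summed level of that list.

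Across the genotypes, no gene of the group (0 of 27) passed the test in any of the 3 comparisons, where limma had to give both a log2 fold change (LFC) of more than 0.5 in size and an adjusted p under 0.05. In Prm2-/- against Prm2+/+, limma called 0.181% of all tested genes, while Bad, Ung and Mdm2, 3 of the 27, reached p under 0.05 before adjustment, beside 7.33% of all tested genes. In Prm2-/- against Prm2+/-, limma called 0.175% of all tested genes, while Ung and Bad, 2 of the 27, reached that level before adjustment, beside 5.44% of all. In Prm2+/- against Prm2+/+, limma called 0.0806% of all tested genes, while 0 of the 27 reached it, beside 4.24% of all. Any pair of these comparisons shares the 3 libraries of a genotype, so that their values are not independent.

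Of the other tools, only DESeq2 gave a different count. In edgeR's quasi-likelihood test, 0 of the 27 genes were called in each comparison, beside 0.161%, 0.154% and 0.0671% of all tested genes in the same order. DESeq2, the tool the study used, called 1 gene in Prm2-/- against Prm2+/+ (Bad, beside 0.880% of all tested genes), 2 in Prm2-/- against Prm2+/- (Bad and Ung, beside 0.739%) and 0 in Prm2+/- against Prm2+/+ (beside 0.396%). With only the 6 libraries compared in the fit, DESeq2 called the same genes of the group, beside 1.55%, 1.06% and 0.396% of all tested genes. Genes to which DESeq2 gave no adjusted p stayed among all tested genes in these shares and counted as not called. In bulk testis RNA, fewer cells of a type and less RNA per cell cannot be told apart, which holds for each value below.

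QuantSeq counts rest on the transcript end, so the last 30 bases of 1 annotated transcript are shown for each gene that the text turns on. They are as annotated on GRCm38 in GENCODE M21 and read 5′ to 3′ on the gene's own strand. For Diablo, Birc5 and Ung this transcript stops short of the annotated end of the gene, which for Diablo lies at 123509765. Capitals mark the polyadenylation signal AATAAA. The ends lie at chr19:6951870-6951899 (Bad, plus strand), chr5:114139292-114139321 (Ung, plus), chr10:117688875-117688904 (Mdm2, minus), chr7:16318176-16318205 (Bbc3, plus), chr11:117855703-117855732 (Birc5, plus) and chr5:123511705-123511734 (Diablo, minus).
Bad: ttatAATAAAgcctgcgcatgtgccgccgc
Ung: accaggctAATAAAagatggttgacaattg
Mdm2: aagaattgtgaaagagatttgtcttacaca
Bbc3: cttttcAATAAAatcagattgaacagtgaa
Birc5: gtaacggAATAAAatcacttgaaaaagtgg
Diablo: AATAAAgatcatttcctgctgaccaccagg
Searched on the sense strand only, 5 of these 6 ends held AATAAA, and that of Mdm2 held neither AATAAA nor the variant ATTAAA within the window. Of 21775 protein-coding genes, 50.9% had AATAAA, 13.0% had ATTAAA and 62.3% had at least 1 of them in the same window, and 29 of the 36 genes of the group did. A match is a description of the annotated end and does not show which end was used in these libraries.

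The plot of all 35 genes by library shows how far the counts reach. Ordered by the mean over the 9 libraries, which tells how many counts stand behind a test and not how abundant a transcript is, Diablo came first with 1453 normalized counts, followed by Atr (1039), Mdm2 (646), Mcl1 (434) and Bcl2l1 (251), the 5 tested genes with a mean above 100. A mean below 20 was found for 9 of the 27 tested genes, down to 7.15 for Apaf1, and the 8 untested genes had means of 0.604 (Nthl1) to 15.2 (Apex1).

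**Figure D1:**
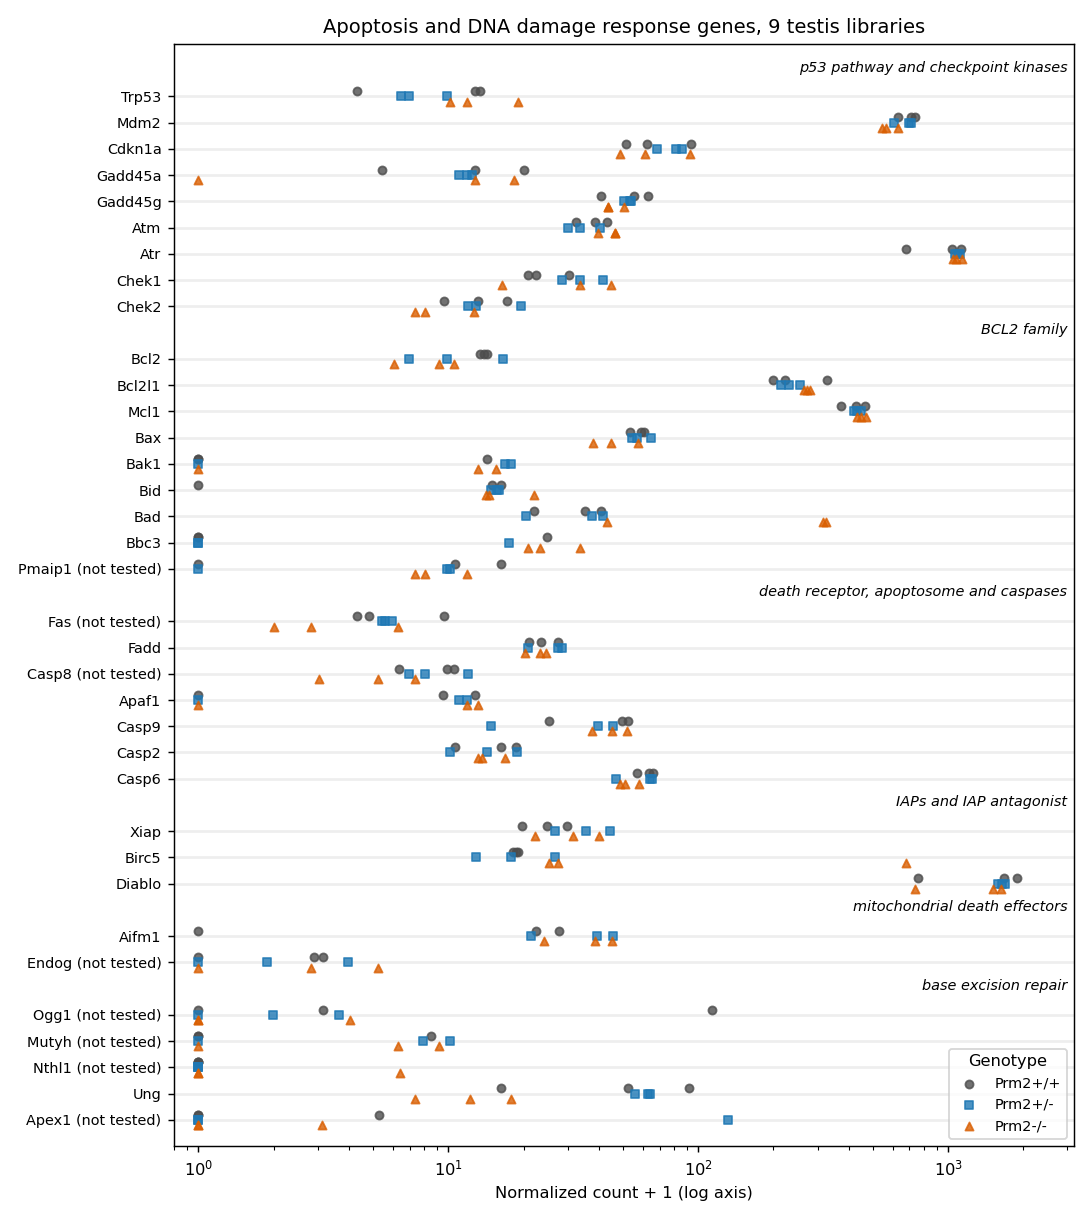
Normalized counts plus 1 (log axis) of the 35 genes in the 9 testis libraries, grouped by role, with circles for Prm2+/+, squares for Prm2+/- and triangles for Prm2-/- and 1 symbol per library. Bad in replicates 1 and 2 (323 and 315) and Birc5 in replicate 1 (678) of Prm2-/- lie far to the right of the other libraries of the same gene, and symbols at 1 on the axis are libraries with 0 counts.

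Among the p53 pathway and checkpoint kinases, all 9 genes were tested and 0 were called in limma in any comparison. In Prm2-/- against Prm2+/+, 4 of the 9 had a positive LFC and 5 a negative one, with a median of -0.04, beside 0.02 over all tested genes. Against Prm2+/-, 2 were positive and 7 negative, with a median of -0.21, beside -0.01 over all tested genes. Mdm2, the ubiquitin ligase that keeps p53 low and is itself a p53 target, had 707, 631 and 733 normalized counts in Prm2+/+, 695, 707 and 605 in Prm2+/- and 629, 563 and 544 in Prm2-/-. The 3 Prm2-/- libraries lay below all Prm2+/+ libraries, narrowly so in replicate 1, and overlapped with Prm2+/-. Its mean was 690 ± 52.7 in Prm2+/+, 669 ± 55.6 in Prm2+/- and 579 ± 44.9 in Prm2-/- (SD, n = 3 each). Mdm2 (ENSMUSG00000020184, chromosome 10, 117688875 to 117710758, minus strand) fell short of a call, with an LFC of -0.25 between Prm2-/- and Prm2+/+ in limma (standard error 0.10, 95% interval -0.49 to -0.01, adjusted p = 0.656). Without replicate 3 of Prm2+/+ the LFC was -0.21 (limma, adjusted p = 0.658).

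Trp53, which encodes p53, had 12.4, 11.8 and 3.31 normalized counts in Prm2+/+, 5.93, 5.48 and 8.84 in Prm2+/- and 10.9, 9.13 and 18.0 in Prm2-/-. The Prm2-/- libraries lay above all Prm2+/- libraries but among those of Prm2+/+. Trp53 had enough counts for a test only with the Prm2-/- libraries included, so its test was not independent of their level. The LFC was 0.54 (95% interval -0.64 to 1.72) against Prm2+/+ and 0.79 (-0.39 to 1.97) against Prm2+/-, with adjusted p of 0.786 and 0.977 in limma. Cdkn1a, the p53 target that encodes the cell cycle inhibitor p21, had 50.4, 61.1 and 92.8 normalized counts in Prm2+/+, 85.0, 67.6 and 80.4 in Prm2+/- and 91.5, 47.7 and 60.2 in Prm2-/-. Its genotypes overlapped throughout, and the interval of its LFC between Prm2-/- and Prm2+/+ was -0.71 to 0.63 around -0.04.

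The stress-induced Gadd45 genes did not separate the genotypes. Gadd45g ranged from 39.7 to 61.9 normalized counts over the 9 libraries, with LFC of -0.18 in Prm2-/- against Prm2+/+ (limma, adjusted p = 0.795). Gadd45a had 19.0, 11.8 and 4.42 in Prm2+/+, 10.9, 10.0 and 11.5 in Prm2+/- and 11.8, 17.3 and 0 in Prm2-/-, so that 1 library at 0 set its spread.

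The damage-sensing kinases stayed close between genotypes where counts were high. Atr, the kinase that responds to stalled replication, had 1125, 1031 and 675 normalized counts in Prm2+/+, 1094, 1112 and 1065 in Prm2+/- and 1135, 1046 and 1070 in Prm2-/-. Only replicate 3 of Prm2+/+ was low, and the LFC between Prm2-/- and Prm2+/+ was 0.23 (95% interval -0.17 to 0.63). Atm, the kinase that responds to DNA breaks, ranged from 29.2 to 45.4, with an LFC of 0.22 (-0.19 to 0.63) in the same comparison and of 0.35 (-0.07 to 0.76) against Prm2+/-. Their effector kinases had wider intervals, which for Chek1 ran from -0.59 to 1.12 and for Chek2 from -1.34 to 0.33 in Prm2-/- against Prm2+/+. Atr shares genomic bases with 2 antisense RNAs of the table, and reads from them cannot be told apart without the strand of the counting.

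In the BCL2 family, 9 of the 10 listed genes had a row and 8 were tested, with 0 called in limma. In Prm2-/- against Prm2+/+, 6 of the 8 had a positive LFC and 2 a negative one, and the median was 0.72, beside 0.02 over all tested genes. In Prm2+/- against Prm2+/+ the median was 0.01, and in Prm2-/- against Prm2+/- it was 0.08. The larger values of the first comparison came from genes with a library at 0 or with few high libraries, which are given next.

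Bad, a BH3-only protein that binds and neutralises the protective BCL2 proteins, had 39.9, 34.3 and 21.0 normalized counts in Prm2+/+, 40.5, 36.5 and 19.4 in Prm2+/- and 323, 315 and 42.2 in Prm2-/-. Replicates 1 and 2 of Prm2-/- were high, and replicate 3 lay just above the highest control library, so that Prm2-/- did not overlap with either control group. The means were 31.7 ± 9.71 in Prm2+/+, 32.2 ± 11.2 in Prm2+/- and 227 ± 160 in Prm2-/- (SD, n = 3 each). Bad (ENSMUSG00000024959, chromosome 19, 6941861 to 6951899, plus strand) had an LFC of 2.37 in Prm2-/- against Prm2+/+ in limma (standard error 0.75, 95% interval 0.64 to 4.11, adjusted p = 0.563). Against Prm2+/- its LFC was also 2.37 (limma, 95% interval 0.64 to 4.11, adjusted p = 0.861), whereas it was 0.00 between Prm2+/- and Prm2+/+ (95% interval -1.73 to 1.74).

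The call of Bad depended on the tool and on 1 library. DESeq2 gave Bad an LFC of 2.84 in Prm2-/- against Prm2+/+ (adjusted p = 0.0103) and of 2.82 against Prm2+/- (adjusted p = 0.0112). In limma without replicate 3 of Prm2-/-, the LFC rose to 3.34 (adjusted p = 0.0233) against Prm2+/+ and to 3.33 (adjusted p = 0.0248) against Prm2+/-, and leaving out replicate 1 of Prm2-/- instead brought it to 1.88 in both. Without replicate 3 of Prm2+/+ it was 2.11 against Prm2+/+ (limma, adjusted p = 0.583). Over all 19 alternatives the adjusted p ran from 0.00496 to 0.891 against Prm2+/+. The start of Bad shares 620 bases with Gpr137 on the other strand, which had 229, 201 and 151 normalized counts in Prm2-/- and 182 to 265 in Prm2+/+, and a part of Gpr137 reads in the count of Bad was not tested.

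**Figure D2:**
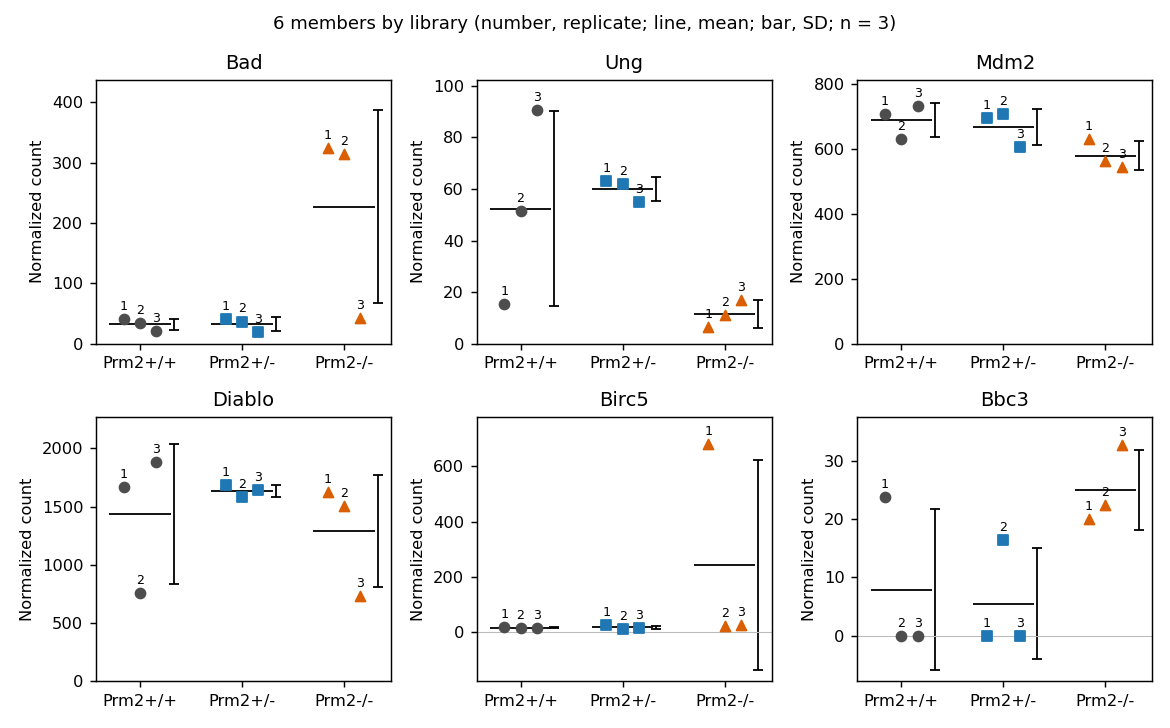
Normalized counts of Bad, Ung, Mdm2, Diablo, Birc5 and Bbc3 in each library, with numbers giving the replicate, horizontal lines the mean and bars the SD of 3 libraries per genotype. Bad is high in 2 of the 3 Prm2-/- libraries, Birc5 in 1, and Ung lies between 6.34 and 16.9 in all 3.

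Bbc3, which encodes the p53-induced BH3-only protein PUMA, was at 0 in 4 of the 9 libraries. It had 23.8, 0 and 0 normalized counts in Prm2+/+, 0, 16.4 and 0 in Prm2+/- and 19.9, 22.3 and 32.7 in Prm2-/-. Every Prm2-/- library held counts and lay above all Prm2+/- libraries, but replicate 1 of Prm2+/+ lay among them. Bbc3 had enough counts for a test only with the Prm2-/- libraries included, so its test was not independent of their level. The LFC was 3.13 (95% interval -0.38 to 6.63, adjusted p = 0.716) against Prm2+/+ and 3.29 (-0.21 to 6.80, adjusted p = 0.935) against Prm2+/- in limma, on a scale where the libraries at 0 are set by the pseudocount of 1. Pmaip1, the other p53-induced BH3-only gene and known as NOXA, was not tested and had 15.2, 9.64 and 0 in Prm2+/+, 0, 9.13 and 8.84 in Prm2+/- and 10.9, 7.10 and 6.34 in Prm2-/-.

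Bid, which links the death receptors to mitochondria, had 15.2, 13.9 and 0 normalized counts in Prm2+/+, 13.8, 14.6 and 15.0 in Prm2+/- and 13.6, 13.2 and 21.1 in Prm2-/-. The 8 libraries with counts lay close together, and the remaining library was replicate 3 of Prm2+/+. Bax and Bak1 encode the proteins that open the outer mitochondrial membrane. Bax had 58.0, 52.5 and 59.7 in Prm2+/+, 53.4, 55.7 and 63.6 in Prm2+/- and 56.1, 43.6 and 37.0 in Prm2-/-, an LFC of -0.33 against Prm2+/+ (95% interval -0.73 to 0.08, limma, adjusted p = 0.721). Bak1 was at 0 in 4 libraries, namely replicates 1 and 2 of Prm2+/+, replicate 2 of Prm2+/- and replicate 3 of Prm2-/-, and had 12.2 to 16.8 in the other 5. Bak1 lies within Ggnbp1 of the other strand, which had 3416 to 5193 normalized counts.

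The protective members differed little where they were well counted. Mcl1 had 463, 427 and 370 normalized counts in Prm2+/+, 447, 431 and 417 in Prm2+/- and 468, 432 and 447 in Prm2-/-, and the LFC between Prm2-/- and Prm2+/+ was 0.10 with an interval of -0.13 to 0.33, the narrowest of the group. Bcl2l1, which encodes BCL-XL, had 221, 198 and 327 in Prm2+/+, 230, 214 and 255 in Prm2+/- and 280, 272 and 265 in Prm2-/-. The Prm2-/- libraries lay above all Prm2+/- libraries, with an LFC of 0.23 (95% interval -0.19 to 0.64), and among those of Prm2+/+. Bcl2, the founding member of the family, had 12.4, 12.9 and 13.3 in Prm2+/+, 5.93, 15.5 and 8.84 in Prm2+/- and 8.15, 5.07 and 9.50 in Prm2-/-. All Prm2-/- libraries lay below all Prm2+/+ libraries for Bcl2, at an LFC of -0.73 (95% interval -1.62 to 0.17, limma, adjusted p = 0.721).

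The death receptor, apoptosome and caspase genes comprised 7 genes, of which 5 were tested and 0 called in limma. In Prm2-/- against Prm2+/+, 2 of the 5 had a positive LFC and 3 a negative one, with a median of -0.03. The receptor gene Fas had 3.80, 8.57 and 3.31 normalized counts in Prm2+/+, 4.94, 4.57 and 4.42 in Prm2+/- and 1.81, 1.01 and 5.28 in Prm2-/-, too few for a test. Its adaptor Fadd ranged from 19.3 to 27.4 over the 9 libraries, with an LFC of -0.08 (95% interval -0.55 to 0.39) in Prm2-/- against Prm2+/+. Casp8, the initiator caspase of this route, was not tested and had 9.50, 5.36 and 8.84 in Prm2+/+, 5.93, 11.0 and 7.07 in Prm2+/- and 6.34, 2.03 and 4.22 in Prm2-/-. Both Fas and Casp8 thus had their lowest library in replicate 2 of Prm2-/-, at counts where the genotypes overlap.

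Apaf1, the scaffold of the apoptosome, was at 0 in replicate 3 of every genotype and had 8.55 to 12.2 normalized counts in the other 6 libraries. The 3 genotypes therefore had nearly the same mean, 6.78 ± 6.09 in Prm2+/+, 6.97 ± 6.05 in Prm2+/- and 7.68 ± 6.68 in Prm2-/- (SD, n = 3 each). Casp9, which the apoptosome activates, had 48.5, 51.4 and 24.3 in Prm2+/+, 13.8, 44.8 and 38.9 in Prm2+/- and 50.7, 36.5 and 44.4 in Prm2-/-, with an LFC of 0.14 (95% interval -0.92 to 1.20) between Prm2-/- and Prm2+/+. Casp2, an initiator caspase, ranged from 9.13 to 17.8, and Casp6, an effector caspase, from 45.7 to 65.2. The LFC of Casp6 in Prm2-/- against Prm2+/+ was -0.25 (95% interval -0.64 to 0.15), and that of Casp2 was -0.03 (-0.78 to 0.73).

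Of the inhibitor of apoptosis proteins and their antagonist, 3 of 3 genes were tested and 0 were called in limma. Birc5, which encodes survivin, had 18.1, 17.1 and 17.7 normalized counts in Prm2+/+, 25.7, 11.9 and 16.8 in Prm2+/- and 678, 24.4 and 26.4 in Prm2-/-. Replicate 1 of Prm2-/- held 749 recovered counts, against 13 to 26 in the other 8 libraries. Replicates 2 and 3 lay above all Prm2+/+ libraries but close to replicate 1 of Prm2+/-, and Prm2-/- overlapped with Prm2+/-. The LFC of 2.06 between Prm2-/- and Prm2+/+ had an interval of -0.56 to 4.69 (limma, adjusted p = 0.724), and DESeq2 gave Birc5 no adjusted p. Xiap, which blocks caspases directly, had 23.8, 28.9 and 18.8 in Prm2+/+, 43.5, 34.7 and 25.6 in Prm2+/- and 38.9, 21.3 and 30.6 in Prm2-/-. Its p of 0.12 (limma, LFC 0.51, adjusted p = 0.842) was the smallest of the 27 genes in Prm2+/- against Prm2+/+.

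Diablo, which encodes the mitochondrial antagonist of these inhibitors, had 1672, 753 and 1883 normalized counts in Prm2+/+, 1683, 1584 and 1640 in Prm2+/- and 1625, 1507 and 734 in Prm2-/-. Replicate 2 of Prm2+/+ and replicate 3 of Prm2-/- were low and the other 7 libraries lay between 1507 and 1883, so that the low libraries fell in different genotypes. The LFC between Prm2-/- and Prm2+/+ was -0.13 (95% interval -1.05 to 0.78).

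Of the mitochondrial death effectors, Aifm1 was tested and Endog was not. Aifm1, which encodes apoptosis-inducing factor, had 26.6, 21.4 and 0 normalized counts in Prm2+/+, 44.5, 38.4 and 20.3 in Prm2+/- and 44.4, 37.5 and 23.2 in Prm2-/-. The library at 0 was again replicate 3 of Prm2+/+, and the LFC of 2.03 between Prm2-/- and Prm2+/+ had an interval of -0.62 to 4.69 (limma, adjusted p = 0.728). Endog, a mitochondrial nuclease, stayed at or below 4.22 in every library and overlaps Spout1 of the other strand.

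In base excision repair, 5 genes had a row and 1, Ung, was tested. Ung, the glycosylase that removes uracil from DNA, had 15.2, 51.4 and 90.6 normalized counts in Prm2+/+, 63.3, 62.1 and 54.8 in Prm2+/- and 6.34, 11.2 and 16.9 in Prm2-/-. All Prm2-/- libraries lay below all Prm2+/- libraries, whereas replicate 1 of Prm2+/+ lay among those of Prm2-/-. The means were 52.4 ± 37.7 in Prm2+/+, 60.1 ± 4.60 in Prm2+/- and 11.5 ± 5.28 in Prm2-/- (SD, n = 3 each). Ung (ENSMUSG00000029591, chromosome 5, 114130386 to 114139323, plus strand) had an LFC of -2.38 in Prm2-/- against Prm2+/- in limma (standard error 0.60, 95% interval -3.77 to -0.99, adjusted p = 0.612). Against Prm2+/+ it was -1.87 (limma, 95% interval -3.26 to -0.48, adjusted p = 0.574).

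The call of Ung depended on the tool. DESeq2 gave an adjusted p of 0.0451 against Prm2+/- and of 0.0914 against Prm2+/+, and 4.89e-05 and 0.105 when only the 6 libraries compared entered the fit. In limma without replicate 1 of Prm2+/+ the LFC against Prm2+/+ was -2.57 (adjusted p = 0.0885), whereas leaving out replicate 3 of Prm2+/+ gave -1.32 (adjusted p = 0.583). No other row of the table overlaps Ung.

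Of the remaining repair genes, Ogg1, Apex1 and Nthl1 had at most 4.29 normalized counts in 8 of the 9 libraries, and Mutyh was at 0 in 4. Ogg1, the glycosylase for oxidised guanine, had 113 normalized counts in replicate 3 of Prm2+/+ and at most 3.04 in the other 8 libraries. Apex1, the endonuclease that cuts at abasic sites, had 131 in replicate 2 of Prm2+/- and at most 4.29 elsewhere. Mutyh, which removes adenine paired with oxidised guanine, had 0, 7.50 and 0 in Prm2+/+, 6.92, 9.13 and 0 in Prm2+/- and 8.15, 0 and 5.28 in Prm2-/-. Nthl1, a glycosylase for oxidised pyrimidines, had counts in replicate 1 of Prm2-/- alone, where 6 counts gave 5.43 normalized counts. Ogg1 overlaps Camk1 on the other strand, which had 21.0 where Ogg1 was high and 4.22 to 21.2 in the other libraries. Apex1 overlaps Pip4p1 on the other strand, which had 201 where Apex1 was high and 92.8 to 205 in the others, and reads from these neighbours were not tested as a part of either count.

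**Figure D3:**
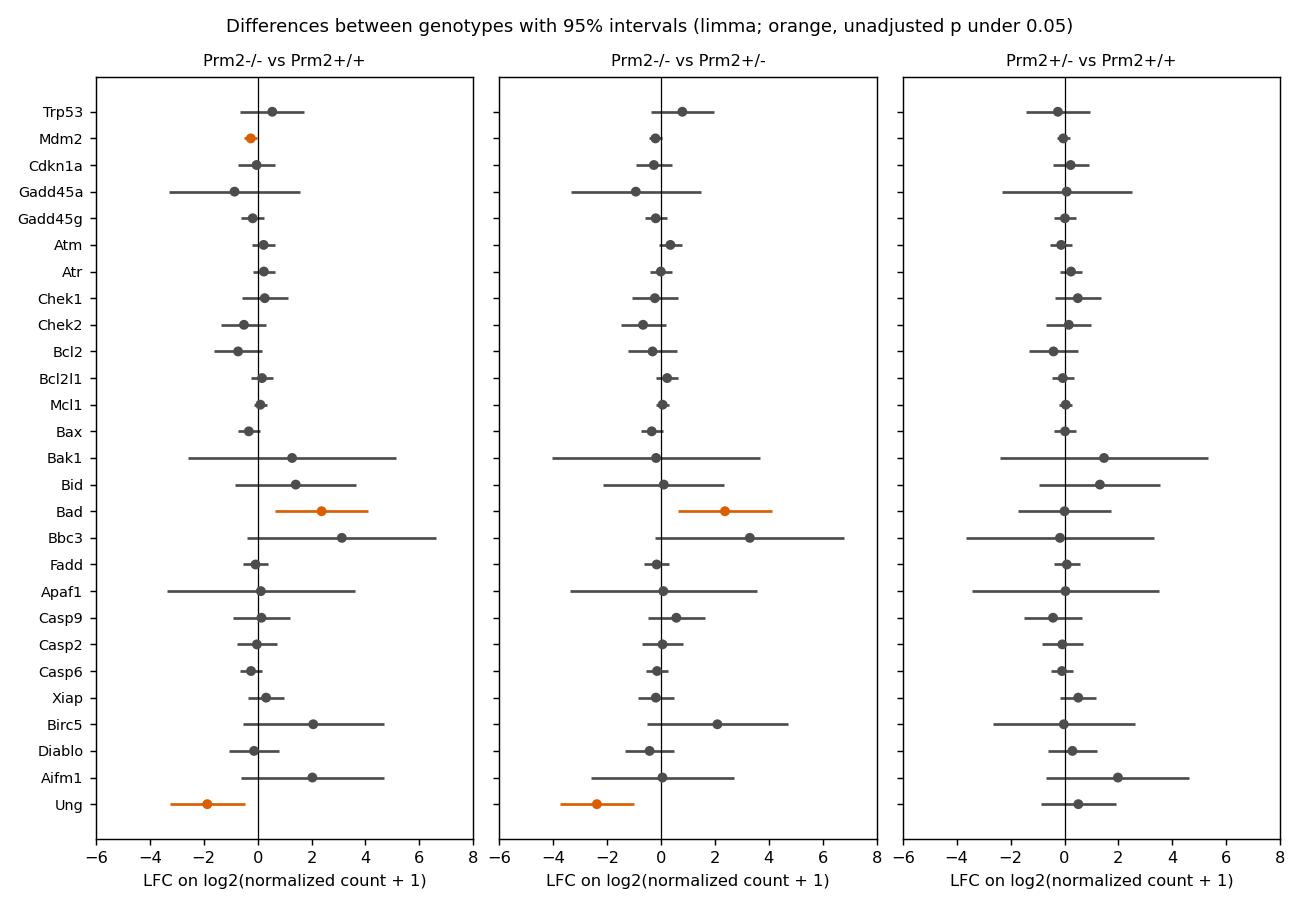
LFC of the 27 tested genes on the log2(normalized count + 1) scale in the 3 comparisons, with points for the limma estimate, lines for the 95% interval and orange for an unadjusted p under 0.05. Bad (2.37) and Ung (-1.87 and -2.38) stand out in the comparisons with Prm2-/-, Mdm2 (-0.25) has a narrow interval just below 0, and the genes with libraries at 0 have intervals several log2 units wide.

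The plot of differences also shows what could be measured. The interval of the LFC lay within 1 log2 unit of 0, that is within a 2-fold change in either direction, for 12 of the 27 genes in each comparison and reached beyond it for the other 15. Standard errors ran from 0.10 for Mcl1 to 1.67 for Bak1. For those 15 genes a 2-fold change was not excluded by the interval, and a p that missed the threshold does not show that their levels were alike. The median size of the LFC, without its sign, was 0.26 for the 27 genes and 0.20 for all tested genes in Prm2-/- against Prm2+/+, 0.16 and 0.19 in Prm2+/- against Prm2+/+, and 0.23 and 0.17 in Prm2-/- against Prm2+/-.

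Counted by overlap, 4 of the 27 genes had Prm2-/- libraries that all lay on the same side of Prm2+/+, with Bad and Birc5 higher and Mdm2 and Bcl2 lower, beside 14.0% of all tested genes. Against Prm2+/- there were 5, with Trp53, Bcl2l1, Bad and Bbc3 higher and Ung lower, beside 14.7% of all tested genes. Trp53 and Bbc3 had enough counts for a test only with the Prm2-/- libraries included, so their place among these genes is no support for a difference. Between Prm2+/- and Prm2+/+ there were 0, beside 9.44%. Only Bad was in both lists, and the share of all tested genes that separated from both control groups was not counted. Its separation was narrow, with 42.2 normalized counts in replicate 3 of Prm2-/- against 40.5 in replicate 1 of Prm2+/-. In recovered counts these libraries had 40 and 41, and replicate 1 of Prm2+/+ had 42, so that the order depended on the size factors.

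Several genes had a high and a low level among the 9 libraries, with a gap of at least 2 log2 units that was wider than the spread on both sides together. This held for 8 of the 27 tested genes (Gadd45a, Bak1, Bid, Bad, Bbc3, Apaf1, Birc5 and Aifm1), beside 13.0% of all tested genes, and for 5 of the 8 untested ones (Pmaip1, Ogg1, Mutyh, Nthl1 and Apex1), in all 13 of the 35 genes, beside 13.8% of all genes with a count above 0. In 6 of the 8 tested genes the low level was a count of 0. The high libraries were all Prm2-/- for Bad (2 libraries), Birc5 (1) and Nthl1 (1), all Prm2+/+ for Ogg1 (1) and all Prm2+/- for Apex1 (1), and they were spread over the 3 genotypes for the other 8 genes. The number of the 35 genes at 0 was 5, 3 and 9 in Prm2+/+, 4, 4 and 5 in Prm2+/- and 2, 4 and 5 in Prm2-/-, with the highest number in the library that also had the most tested genes at 0.

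**Figure D4:**
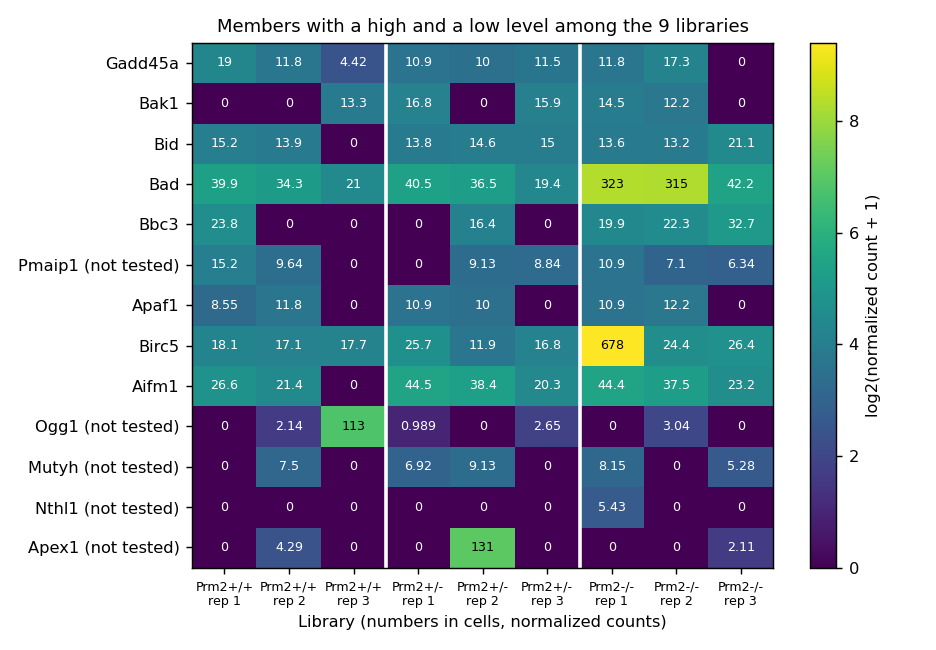
Heatmap of log2(normalized count + 1) for the 13 genes with a high and a low level, with libraries as columns, replicates 1 to 3 from left to right in each genotype, and the normalized count written in each cell. Bad and Birc5 are bright in Prm2-/- libraries (323, 315 and 678), Ogg1 in replicate 3 of Prm2+/+ (113) and Apex1 in replicate 2 of Prm2+/- (131), while Apaf1 is at 0 in replicate 3 of each genotype.

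Other genes of the same pathways gave 0 calls in limma and in edgeR's quasi-likelihood test in all comparisons. Of 36 further apoptosis genes 34 had a row and 23 were tested, and 2 reached p under 0.05 in limma before adjustment in Prm2-/- against Prm2+/+ (1 higher and 1 lower, beside 7.33% of all tested genes), 3 in Prm2+/- against Prm2+/+ (all higher, beside 4.24%) and 3 in Prm2-/- against Prm2+/- (all lower, beside 5.44%). Of 38 further p53 and checkpoint genes 32 were tested, and in the same order 2 (1 higher and 1 lower), 0 and 1 (higher) reached that level. Of 22 further base excision repair genes 19 were tested, and 1 (higher), 0 and 1 (higher) reached it. DESeq2 called 1 of these genes, Bcl2l14, in Prm2-/- against Prm2+/+, beside 0.880% of all tested genes, and in Prm2+/- against Prm2+/+, beside 0.396%. Median LFC in Prm2-/- against Prm2+/+ were -0.04, 0.05 and 0.08 for the 3 lists, beside 0.02 over all tested genes.

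**Figure D5:**
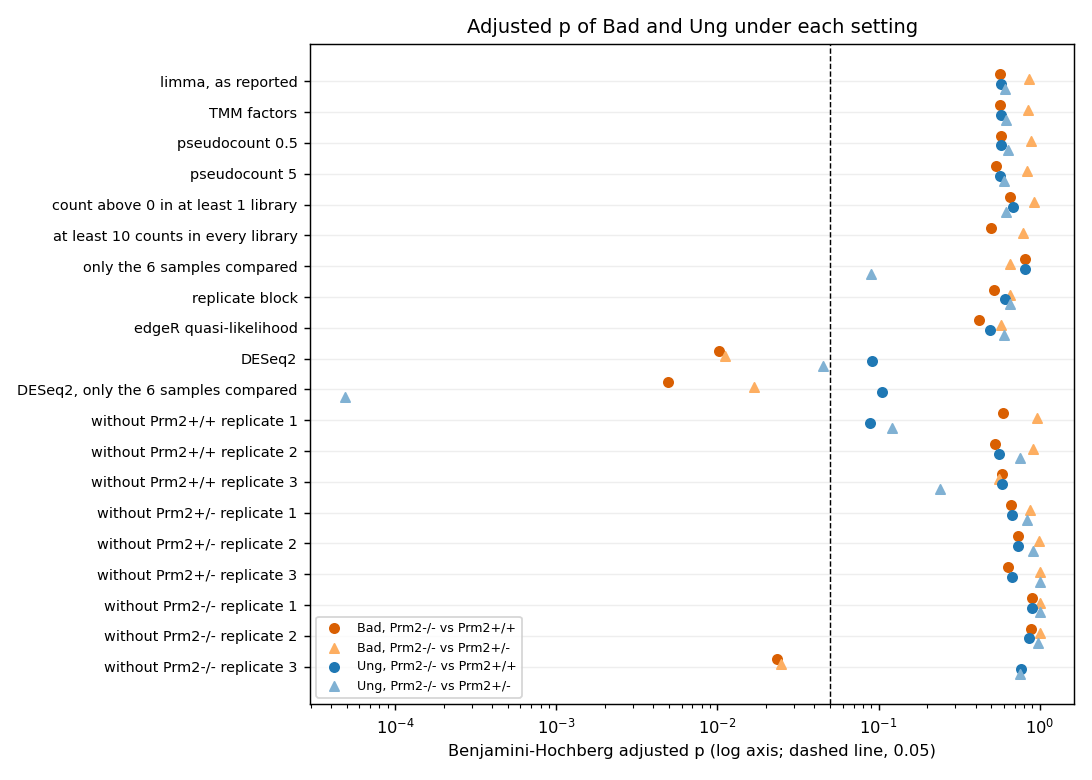
Benjamini-Hochberg adjusted p (log axis) of Bad (orange) and Ung (blue) in Prm2-/- against Prm2+/+ (circles) and against Prm2+/- (triangles) for limma as reported and for each alternative, with a dashed line at 0.05. Bad passes the line with DESeq2 and in limma without replicate 3 of Prm2-/-, and Ung passes it with DESeq2 against Prm2+/- alone, down to 4.89e-05.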

How the data were processed

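The 9 testis libraries, 3 per genotype, were analysed from deposited normalized counts, a signal for which the authors trimmed reads (Trim Galore 0.4.5), mapped them to GRCm38 (HISAT2 2.1), quantified transcripts (StringTie 1.3.3), derived gene counts, removed pseudogenes and divided by the size factors of DESeq2. Counts were recovered as whole multiples of 1 step per library (100% of values within 0.001 of a whole number), although the step of Prm2+/- replicate 1 is close to 1, where whole multiples say less. Gene counts made with StringTie come from coverage and may differ in scale from reads. No column (0) lacked a sample, and 38520 of the 38685 rows (99.6%) were matched to GENCODE M21. Of the 35 genes, 16 overlap another row, and the strand setting of the counting is not given in the sources used here. The rows of 31 genes carry the number of a locus assembled by StringTie, as do 59.0% of all rows. These include every gene with a high and a low level, and a part of the assembly in those levels was not tested.

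Genes were kept with filterByExpr (14893) and compared with limma 3.58.1 (lmFit and a trended eBayes) after adding 1 and taking log2, with all 9 libraries and genotype as the only term. An LFC on this scale compares means of log2 values, so for low genes it can be smaller or larger than the ratio of the group means. Libraries at 0 widen it. Bbc3 had an LFC of 3.13 in Prm2-/- against Prm2+/+, beside means of 25.0 and 7.92 normalized counts. P-values were adjusted over all tested genes (Benjamini-Hochberg), and calls needed an adjusted p under 0.05 and an LFC beyond 0.5, the study's thresholds. The study's tool, DESeq2 1.42.0, and edgeR 4.0.16 were run on the recovered counts as alternatives, since the deposited values are normalized. The others were TMM factors, pseudocounts of 0.5 and 5, a count above 0 in at least 1 library, at least 10 counts in every library, only the 6 libraries compared, a replicate block and leaving out each library. The script was tested on simulated counts, which were drawn without a high and a low level within a genotype. That test therefore does not cover genes with such levels. R 4.3.3, Python 3.11.15, pandas 2.3.3 and matplotlib 3.10.9 were used.

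All 35 genes are named. Those with an unadjusted p under 0.05 are given in full, and those with a high and a low level with every library in the text or the heatmap. Of the wider lists, the 2 genes with the smallest p per list and comparison are given where that p was under 0.05 before adjustment. Genes whose groups did not overlap were named after their values were seen. The genes and lists were chosen with earlier results of these data known.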

Additional observations from a re-analysis of the deposited data

How the results depend on the processing

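Counts of called genes depended on tool and filter, and the cause was not tested except where fewer genes or libraries entered by construction. Among the 27 genes, limma called 0 in each comparison, and the alternatives that changed this were DESeq2, with 1 in Prm2-/- against Prm2+/+ (Bad) and 2 against Prm2+/- (Bad and Ung), the same counts in DESeq2 with only the 6 libraries compared, and leaving out a library, which gave 0 to 1 in both comparisons with Prm2-/-, the 1 being Bad without replicate 3 of Prm2-/-. Between Prm2+/- and Prm2+/+ every alternative gave 0. The LFC of Bad, Ung and Mdm2 kept their sign in all alternatives that could be run, with -2.57 to -1.32 for Ung and -0.32 to -0.21 for Mdm2 against Prm2+/+, 1.88 to 3.34 for Bad against Prm2+/+, 1.88 to 3.33 for Bad against Prm2+/- and -2.69 to -2.03 for Ung against Prm2+/-. Ung was not tested when at least 10 counts were required in every library.

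Over all tested genes, limma called 27 in Prm2-/- against Prm2+/+, 12 in Prm2+/- against Prm2+/+ and 26 in Prm2-/- against Prm2+/-. In the same order, at least 10 counts in every library gave 9, 1 and 11, DESeq2 gave 131, 59 and 110, and DESeq2 with only the 6 libraries compared gave 231, 59 and 158. Limma with only the 6 libraries compared gave 53 in the first and 52 in the last comparison, and a count above 0 in at least 1 library gave 21 in Prm2+/- against Prm2+/+. Leaving out each library gave 28 to 62, 9 to 43 and 23 to 49. With the replicate number as a block the counts were 15, 6 and 14, and no gene of the group (0) was called. Same-numbered libraries of different genotypes had correlations of their deviations from the group means between -0.037 and 0.042. For libraries of different number and genotype the range was -0.038 to 0.046. As these ranges were alike, the numbers were not taken to pair the libraries, although 5 of the 9 libraries correlated best with their own number.

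In each comparison 15 of the 27 genes had an interval of the LFC that reached beyond 1 log2 unit, and 8 genes had too few counts for a test.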

Other observations

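Among the further apoptosis genes, Tnfrsf10b, a death receptor for the ligand TRAIL, had 39.9, 38.6 and 39.8 normalized counts in Prm2+/+, 49.4, 42.0 and 38.9 in Prm2+/- and 24.5, 26.4 and 33.8 in Prm2-/-. All Prm2-/- libraries lay below all other libraries, with an LFC of -0.48 against Prm2+/+ (limma, adjusted p = 0.604) and of -0.61 against Prm2+/- (limma, adjusted p = 0.711). Cflar, which encodes the inhibitor of Casp8 activation FLIP, had 39.0, 41.8 and 42.0 in Prm2+/+, 49.4, 41.1 and 44.2 in Prm2+/- and 35.3, 27.4 and 34.8 in Prm2-/-. Its Prm2-/- libraries also lay below all others, with an LFC of -0.46 against Prm2+/- (limma, adjusted p = 0.870). Neither gene was called.

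Bcl2l11, which encodes the BH3-only protein BIM, had 380, 347 and 319 normalized counts in Prm2+/+, 444, 412 and 429 in Prm2+/- and 417, 407 and 351 in Prm2-/-. All Prm2+/- libraries lay above all Prm2+/+ libraries, with an LFC of 0.30 (limma, adjusted p = 0.842), and Prm2-/- overlapped with both. Bcl2l14, a BCL2 family gene, had 81.7, 129 and 91.7 normalized counts in Prm2+/+, 154, 1325 and 1468 in Prm2+/- and 1142, 1231 and 167 in Prm2-/-. It was high in 4 libraries, of both Prm2+/- and Prm2-/-, and its LFC against Prm2+/+ was 2.75 in Prm2+/- and 2.63 in Prm2-/- (limma, adjusted p = 0.842 and 0.641), with calls in DESeq2 alone. Of the p53 and checkpoint genes, Trp53bp1, which encodes a p53-binding protein at DNA breaks, averaged 48.9 ± 7.99 in Prm2+/+, 62.0 ± 4.58 in Prm2+/- and 68.9 ± 8.05 in Prm2-/- (SD, n = 3 each), with an LFC of 0.49 in Prm2-/- against Prm2+/+ (limma, adjusted p = 0.589). Gadd45gip1, whose product binds GADD45 proteins, had 312 ± 33.6, 267 ± 41.5 and 238 ± 20.5 in the same order, with an LFC of -0.39 (limma, adjusted p = 0.630). Trp53inp1, a p53-induced gene, had 11.4, 12.9 and 33.1 in Prm2+/+, 11.9, 8.22 and 11.5 in Prm2+/- and 11.8, 48.7 and 48.6 in Prm2-/-, with replicate 1 of Prm2-/- among the Prm2+/- libraries and an LFC of 1.47 against Prm2+/- (limma, adjusted p = 0.891). Aptx, which encodes aprataxin, an enzyme that repairs blocked DNA ends, had 92.2, 105 and 74.0 in Prm2+/+, 103, 58.5 and 104 in Prm2+/- and 128, 138 and 135 in Prm2-/-. All Prm2-/- libraries of Aptx lay above the other 6, with an LFC of 0.57 against Prm2+/+ (limma, adjusted p = 0.669) and of 0.64 against Prm2+/- (limma, adjusted p = 0.878). None of these genes (0) was called in limma or in edgeR's quasi-likelihood test. The further genes named here were chosen for a small p, which favours groups that do not overlap. Of all tested genes, 14.0% did not overlap in Prm2-/- against Prm2+/+, 14.7% against Prm2+/- and 9.44% in Prm2+/- against Prm2+/+. The share that lay outside both other groups was not counted.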
